A study of Arabidopsis thaliana with 4 samples.

Results

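The PHYTOCHROME INTERACTING FACTORs (PIFs) and the transcription factors that act with them in light signaling were measured in leaf mRNA of WT and *ldl1 ldl2* plants. Levels are in FPKM, sequenced fragments scaled to the length of the transcript and to the mapped total of the library. The 9 genes were taken by name from the tables: *PIF1*, *PIF3*, *PIF4*, *PIF5* and *PIF7*, the bZIP genes *HY5* and *HYH*, and the atypical bHLH genes *PIL1* and *HFR1*. All 9 were listed among the 32633 loci of the tables, and 8 of them passed the minimum for the test, a mean of 1 FPKM over the libraries, which 16905 loci passed. *PIL1* did not pass and is described without a test.

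Total RNA came from leaves of uninfected *Arabidopsis thaliana* plants of the Col-0 accession, 3 weeks old and grown in soil with 12 h of light per day, with 2 biological replicates of each genotype and so 4 libraries. WT was Col-0. The *ldl1 ldl2* double mutant, in the same background, was the cross of 1 T-DNA insertion line of each gene (*ldl1-1* and *ldl2-1*), which encode LSD1-like histone demethylases. The labels number the libraries 1 and 2 within each genotype and give no harvest time, and neither the labels nor the study's methods say what the same number shares between the genotypes. The comparisons were *ldl1 ldl2* against WT and the libraries numbered 2 against those numbered 1. Ratios below are of FPKM, and log2 differences are of log2(FPKM + 1), a scale that understates the change of low genes.

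PIFs are basic helix-loop-helix proteins that promote elongation growth in darkness and shade. Phytochromes activated by light bind PIFs and lead to their breakdown or inactivation, and PIFs bind the G-box (CACGTG) and the related PBE-box (CACATG) in the promoters of their targets. HY5 and its homolog HYH act in the opposite direction, promoting light-grown development, and are marked for breakdown in darkness by the COP1/SPA ubiquitin ligase. *PIL1* and *HFR1* are transcribed in response to PIFs and shade, and the HFR1 protein binds PIFs and keeps them from DNA. The transcript levels of *PIF4* and *PIF5* follow the circadian clock, whose evening complex represses both genes.

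The libraries stood apart by replicate number. Across the 16905 loci, Pearson's r of log2(FPKM + 1) was 0.954 for either pair that shared a number, 0.846 for the WT pair and 0.915 for the *ldl1 ldl2* pair. Read depth was not analysed here. Among low single-exon loci, the commonest ratio of WT replicate 1 to another library was sought only between 0.8 and 1/0.8. It put the fragments of the other libraries at 0.9 to 1.03 times those of WT replicate 1. At this ratio lay 28 to 66 of 143 to 207 loci. A larger difference in depth could not have been found in this way. *LDL1* was at 4.09 to 5.001 FPKM in all libraries, and *LDL2* at 0.944 and 1.04 in WT and 0.281 and 0.673 in *ldl1 ldl2*. Reads from either side of the insertions enter these values, which therefore give no check of genotype. The 6 leaf mesophyll markers summed to between 42719 and 65673 FPKM in each library, with 5 of the 6 lower in the replicate 2 libraries of both genotypes, the 4 seed markers to at most 0.243 and the 5 matched root markers to at most 12.6, with *COBL9* and *EXPA7* listed at 0 throughout. The 5 flower markers summed to 0.602 and 10.8 FPKM in WT replicates 1 and 2 and to 2.78 and 4.89 in *ldl1 ldl2*, and *SEP3* in particular was at 4.46 and 3.13 in the replicate 2 libraries against at most 0.0969 in the others. The part of these differences in the results was not tested.

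The promoters of 4 genes are shown because the results set these genes side by side. *PIF4* and *PIF5* exchanged rank between the replicate numbers, whereas *HY5* and *HYH* were both lower in the replicate 2 libraries. Each line gives the 300 bases before the gene start of the RefSeq annotation of TAIR10.1, in the gene's direction, with any G-box or PBE-box in capitals.
*PIF4* at chr2:17885801-17886100, plus strand: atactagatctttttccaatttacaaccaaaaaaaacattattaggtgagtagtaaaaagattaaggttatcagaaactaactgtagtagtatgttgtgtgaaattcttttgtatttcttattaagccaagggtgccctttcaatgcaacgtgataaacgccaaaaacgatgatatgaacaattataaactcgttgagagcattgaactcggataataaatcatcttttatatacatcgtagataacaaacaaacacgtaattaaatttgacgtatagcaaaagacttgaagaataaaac
*PIF5* at chr3:21830838-21831137, minus strand: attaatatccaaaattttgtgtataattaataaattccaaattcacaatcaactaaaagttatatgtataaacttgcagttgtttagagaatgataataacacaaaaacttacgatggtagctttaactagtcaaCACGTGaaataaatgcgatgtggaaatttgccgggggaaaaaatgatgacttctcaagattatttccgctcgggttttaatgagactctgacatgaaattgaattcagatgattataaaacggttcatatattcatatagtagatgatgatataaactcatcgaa
*HY5* at chr5:3595074-3595373, minus strand: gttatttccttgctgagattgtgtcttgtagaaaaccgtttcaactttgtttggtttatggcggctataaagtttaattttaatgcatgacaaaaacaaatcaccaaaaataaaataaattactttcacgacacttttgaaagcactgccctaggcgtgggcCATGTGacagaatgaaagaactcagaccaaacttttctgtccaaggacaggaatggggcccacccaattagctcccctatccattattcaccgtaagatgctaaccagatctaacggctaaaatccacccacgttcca
*HYH* at chr3:6023544-6023843, plus strand: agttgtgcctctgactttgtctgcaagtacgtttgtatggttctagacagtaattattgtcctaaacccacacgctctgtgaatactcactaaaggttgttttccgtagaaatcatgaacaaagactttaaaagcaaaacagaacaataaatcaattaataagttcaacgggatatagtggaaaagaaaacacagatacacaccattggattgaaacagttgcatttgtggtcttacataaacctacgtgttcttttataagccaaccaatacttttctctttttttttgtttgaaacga
The *PIF5* promoter held 1 G-box (position -165 from the start) and the *HY5* promoter 1 PBE-box, read as CATGTG on this strand (position -138). No other of the 9 promoters held a G-box (CACGTG, which reads the same on both strands), a PBE-box (CACATG or CATGTG), an evening element (AAAATATCT or its complement AGATATTTT) or a CCA1-binding site (AAAAATCT or AGATTTTT) in these 300 bases. Of 27443 promoters of the same length, 7.09% held a G-box, 13.1% a PBE-box, 2.79% an evening element and 7.94% a CCA1-binding site. Within 1000 bases, 2 of the 9 genes (*PIF5* and *HFR1*) had a G-box, which 14.8% of all promoters had, and 5 (*PIF4*, *PIF7*, *HY5*, *HYH* and *HFR1*) had a PBE-box, which 37.7% had. *PIF7* had an evening element at position -820 (7.24% of all promoters within 1000 bases) and *PIF3* a CCA1-binding site at position -391 (21.1%). These matches describe the letters of the windows only.

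*PIF4* and *PIF5* were by far the most abundant of the 9 transcripts, and the rank of the remaining genes was less distinct. FPKM is per length, so levels can be set side by side. Over the 4 libraries *PIF4* was at 185 ± 63.6 FPKM and *PIF5* at 133 ± 26.1 (SD, n = 4), and their ranges overlapped. *PIF7* followed at 23.4 ± 10.8, *PIF1* at 19.2 ± 3.08, *HFR1* at 14.6 ± 8.99 and *PIF3* at 9.28 ± 5.39 FPKM (SD, n = 4). *HY5* at 3.03 ± 1.46, *HYH* at 2.101 ± 2.495 and *PIL1* at 0.9800 ± 0.701 FPKM were the lowest (SD, n = 4). Only the step from *PIF5* to *PIF7* separated neighbours in this order without overlap, since the lowest *PIF5* value (104 FPKM) lay above the highest *PIF7* value (36.2), and every other pair of neighbours overlapped.

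**Figure D1:**
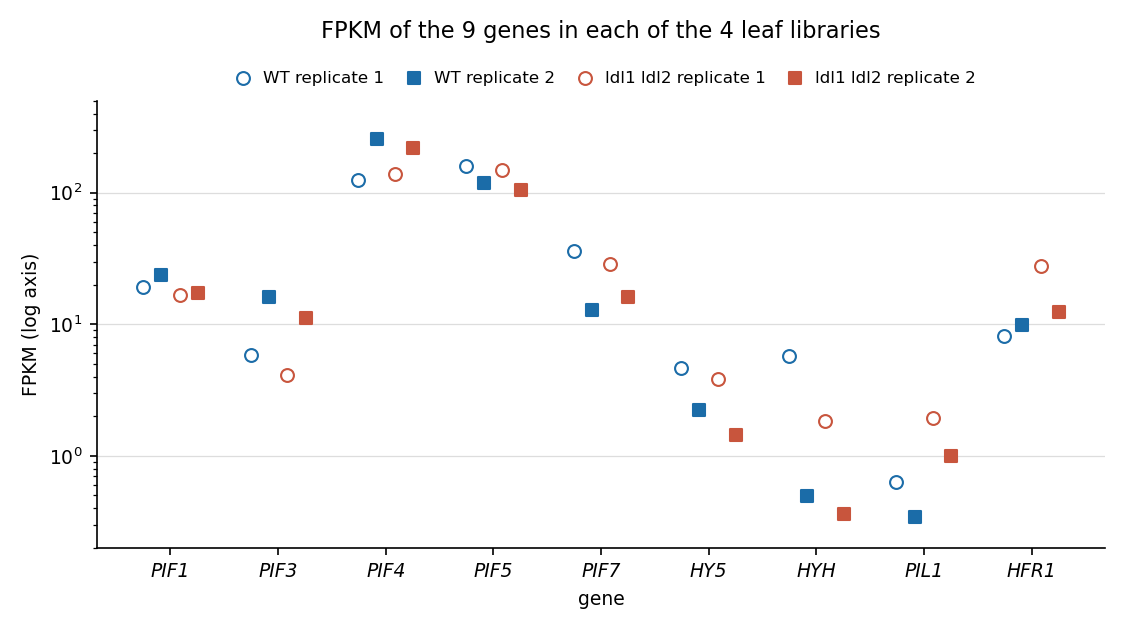
FPKM of each of the 9 genes (log axis) in the 4 libraries, with WT in blue, *ldl1 ldl2* in red, replicate 1 as open circles and replicate 2 as filled squares. *PIF4* and *PIF5* lie at 104 FPKM or above in all 4 libraries, and *HYH* lies at 5.71 and 1.85 in the replicate 1 libraries and at 0.492 and 0.3596 in the replicate 2 libraries.

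Within both genotypes the PIF genes differed between the replicate numbers in different directions. *PIF3* and *PIF4* were higher in the replicate 2 libraries and *PIF7* was lower, and *HY5* and *HYH* were lower as well. These 5 genes passed limma's test of replicate 2 against replicate 1 with Benjamini-Hochberg adjustment over all loci, 2 of the 9 as higher and 3 as lower, in a comparison in which 13.2% of all loci tested were called higher and 10.7% lower. This comparison sets 2 libraries against 2, for which exact permutation reaches a two-sided p of 0.333 at the lowest for any one gene. The lower p-values of limma draw on the spread over all loci. A fall in mRNA per cell and fewer cells of a type that expresses a gene cannot be told apart in whole leaves.

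*PIF3* (AT1G09530, chromosome 1 from 3075768 to 3079654 in TAIR10.1), the first of the family to be found by its binding to phytochrome, was at 5.83 FPKM in WT and 4.14 in *ldl1 ldl2* in replicate 1, against 16.02 and 11.1 in replicate 2. Both replicate 2 libraries lay above both replicate 1 libraries. The ratio of replicate 2 to replicate 1 was 2.75 in WT and 2.68 in *ldl1 ldl2*, a log2 difference of 1.28 (standard error 0.24, adjusted p = 0.00194 from limma).

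*PIF4* (AT2G43010, chromosome 2 from 17886101 to 17889087), which drives elongation at warm temperature and in shade, was at 125 FPKM in WT and 139 in *ldl1 ldl2* in replicate 1, against 257 and 220.0 in replicate 2. Its groups by replicate number did not overlap either. The ratio was 2.06 in WT and 1.58 in *ldl1 ldl2*, a log2 difference of 0.85 (standard error 0.25, adjusted p = 0.0291 from limma). The call for *PIF4* was lost when each library was scaled to the same median (adjusted p = 0.113, log2 difference 0.69) and without the minimum on FPKM (adjusted p = 0.0835).

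*PIF5* (AT3G59060, chromosome 3 from 21827905 to 21830837), the closest relative of *PIF4*, went the other way in all comparisons of replicate numbers. It was at 160.3 FPKM (WT) and 149.8 (*ldl1 ldl2*) in replicate 1, against 119.5 and 104 in replicate 2, without overlap, but the log2 difference of -0.47 did not pass the test (standard error 0.25, adjusted p = 0.188 from limma). *PIF4* was at 0.778 and 0.928 times the level of *PIF5* in replicate 1 of WT and *ldl1 ldl2* but at 2.15 and 2.12 times its level in replicate 2. The order of the pair followed the replicate number and was the same in both genotypes.

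*PIF7* (AT5G61270, chromosome 5 from 24638491 to 24640765), a PIF that is stable in light and acts in shade avoidance, was at 36.2 FPKM in WT and 28.5 in *ldl1 ldl2* in replicate 1, against 12.9 and 16.2 in replicate 2. All replicate 2 values lay below all replicate 1 values. Replicate 1 exceeded replicate 2 by 2.81-fold in WT and 1.75-fold in *ldl1 ldl2*, a log2 difference of -1.10 for replicate 2 against replicate 1 (standard error 0.26, adjusted p = 0.00798 from limma). *PIF7* was at 6.20 and 6.88 times the level of *PIF3* in the replicate 1 libraries of WT and *ldl1 ldl2* and at 0.804 and 1.46 times in the replicate 2 libraries. The call for *PIF7* was lost without the minimum on FPKM (adjusted p = 0.065).

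*PIF1* (AT2G20180, chromosome 2 from 8704024 to 8707009, named PIL5 in RefSeq), which represses seed germination in the dark, was the steadiest of the family. It was at 19.3 FPKM (WT) and 16.7 (*ldl1 ldl2*) in replicate 1, against 23.5 and 17.3 in replicate 2, with a log2 difference of 0.16 between replicate numbers (standard error 0.24, adjusted p = 0.668 from limma). The replicate groups overlapped.

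**Figure D2:**
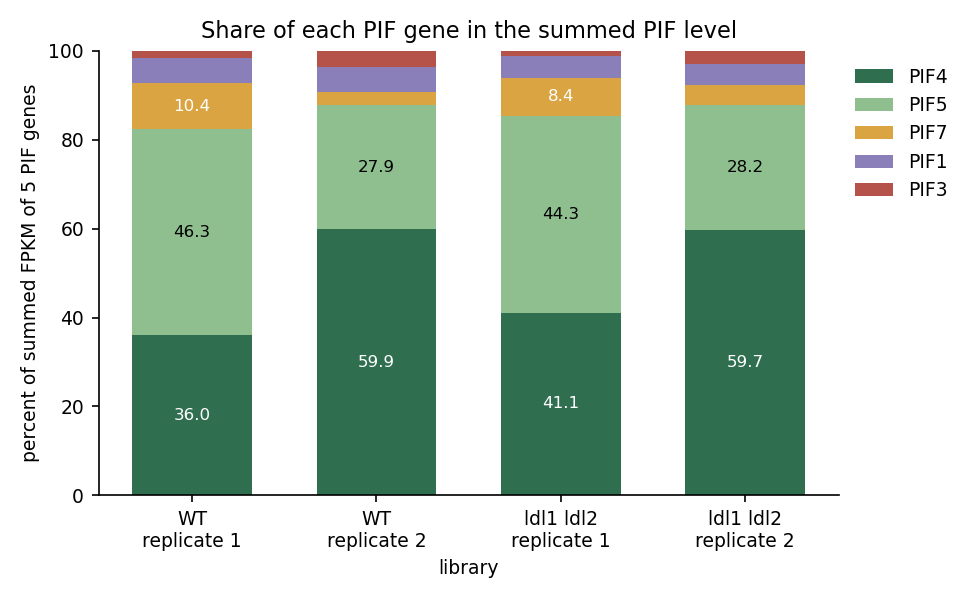
Share of each PIF gene in the summed FPKM of the 5 PIF genes, in percent, for each library. *PIF4* makes up 35.997% and 41.1% of the sum in the replicate 1 libraries and 59.9% and 59.7% in the replicate 2 libraries, while *PIF5* makes up 46.3% and 44.3% and then 27.9% and 28.2%.

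Summed over the 5 genes, the PIF level was 346 and 429 FPKM in replicates 1 and 2 of WT, against 338 and 369 in those of *ldl1 ldl2*, and *PIF4* and *PIF5* together gave 82.3% to 87.9% of it in every library. The share of *PIF7* was 10.4% and 8.42% in the replicate 1 libraries of WT and *ldl1 ldl2* but 3.005% and 4.41% in the replicate 2 libraries. The share of *PIF3* was 1.68% and 1.22% in the replicate 1 libraries and 3.74% and 3.01% in the replicate 2 libraries.

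The bZIP genes were lower in the replicate 2 libraries of both genotypes. *HY5* (AT5G11260, chromosome 5 from 3593335 to 3595073), a central activator of light-induced genes, was at 4.64 FPKM in WT and 3.82 in *ldl1 ldl2* in replicate 1, against 2.22 and 1.44 in replicate 2. Its log2 difference was -0.90 (standard error 0.26, adjusted p = 0.0228 from limma), and replicate 1 was 2.09-fold above replicate 2 in WT and 2.66-fold in *ldl1 ldl2*. *HYH* (AT3G17609, chromosome 3 from 6023844 to 6024710) was at 5.71 FPKM (WT) and 1.85 (*ldl1 ldl2*) in replicate 1, against 0.492 and 0.3596 in replicate 2. This was the widest difference between replicate numbers among the 8 genes tested, with a log2 difference of -1.62 (standard error 0.31, adjusted p = 0.00234 from limma). Replicate 1 exceeded replicate 2 by 11.6-fold in WT and 5.14-fold in *ldl1 ldl2*, and the replicate groups overlapped for neither gene. *HYH* reached the minimum of 1 FPKM only through the replicate 1 libraries, and its ratios rest on replicate 2 values below that minimum. Its call is therefore not independent of the minimum, without which its adjusted p was 0.0458 from limma. The *HY5* transcript was at 0.813 times the level of *HYH* in WT replicate 1 and at 2.07 to 4.52 times in the other libraries. Calls for both genes depended on the fit, since *HY5* did not pass without the minimum on FPKM (adjusted p = 0.0866) and neither gene passed without a genotype term (adjusted p = 0.0766 for *HY5* and 0.0736 for *HYH*), a fit that also lost *PIF4* (adjusted p = 0.0530).

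*PIL1* (AT2G46970, chromosome 2 from 19295431 to 19297858) was at 0.637 FPKM (WT) and 1.95 (*ldl1 ldl2*) in replicate 1, against 0.340 and 0.991 in replicate 2, so that replicate 1 was 1.87-fold and 1.97-fold above replicate 2 while the replicate groups overlapped. *HFR1* (AT1G02340, chromosome 1 from 465616 to 467880) was at 8.13 and 27.8 FPKM in the replicate 1 libraries, against 9.94 and 12.4 in replicate 2. Its difference between replicate numbers had opposite signs in the genotypes, 0.26 in WT and -1.10 in *ldl1 ldl2* on the log2 scale, and the mean of -0.42 did not pass the test (standard error 0.30, adjusted p = 0.344 from limma).

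**Figure D3:**
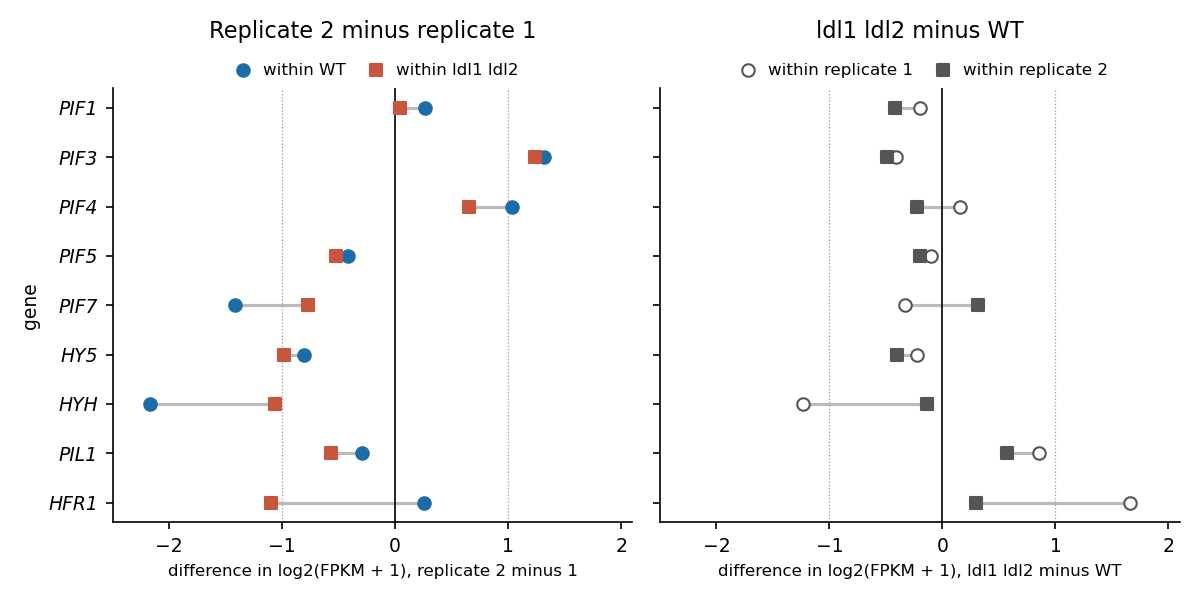
Differences in log2(FPKM + 1) for the 9 genes, on the left replicate 2 minus replicate 1 within WT (blue circles) and *ldl1 ldl2* (red squares), and on the right *ldl1 ldl2* minus WT within replicate 1 (open circles) and replicate 2 (filled squares). Dotted lines mark a 2-fold difference. *PIF3* lies at 1.32 and 1.24 on the left, *HYH* at -2.17 and -1.07, and on the right only *HFR1* and *PIL1* lie above 0 in both replicate numbers.

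By a simple rule, at least 2-fold on the log2(FPKM + 1) scale in the same direction in both genotypes, 1 of the 9 genes (*PIF3*) was higher in the replicate 2 libraries and 1 (*HYH*) lower, against 5.02% and 4.34% of all loci tested. *HY5* missed the rule on this scale, although by FPKM it was 2.09-fold and 2.66-fold lower in WT and *ldl1 ldl2*. Of the 9 genes, 3 were higher in replicate 2 in both genotypes by any amount (47.2% of all loci tested) and 5 were lower (30.6%). The replicate groups did not overlap for 2 genes that were higher in replicate 2 (40.6% of all loci tested) and 4 that were lower (24.5%). The median log2 difference of the 9 genes was -0.43, beside 0.14 over all loci tested. Scaling the libraries to the same median took the latter to -0.0022, kept the sign of the replicate difference of all 9 genes, and changed the share of calls over all loci that were higher in replicate 2 from 55.3% to 43.0%. With quantile normalization the share was 45.2%.

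Clock genes differed between the same libraries. Of 10 clock genes, 7 were called higher in the replicate 2 libraries (*ELF4*, *PRR5*, *TOC1*, *LUX*, *GI*, *ELF3* and *PRR7*; 13.2% of all loci tested) and 3 lower (*LHY*, *CCA1* and *PRR9*; 10.7%), with a median log2 difference of 3.47. *ELF4* and *PRR5* reached the minimum of 1 FPKM only through replicate 2, and *LHY* only through replicate 1. These counts are therefore not independent of the minimum. Transcripts of *CCA1*, a morning gene, were at 50.4 FPKM in WT and 16.6 in *ldl1 ldl2* in replicate 1, against 3.85 and 2.44 in replicate 2. *ELF4* and *LUX*, which encode subunits of the evening complex, were at no more than 0.526 and 2.85 FPKM in the replicate 1 libraries and at no less than 131 and 71.5 in the replicate 2 libraries. *PRR5*, a repressor of morning clock genes, was listed at 0 and at 0.174 FPKM in the replicate 1 libraries of WT and *ldl1 ldl2* and was at 51.0 and 63.9 in the replicate 2 libraries. *PIF4* was higher, and *PIF5* lower, in the libraries in which the evening complex genes were high. Harvest time is not given, and its part in the differences of the PIF and bZIP genes was not tested.

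Most of the genes listed as targets of HY5 were lower in the replicate 2 libraries, as were *HY5* and *HYH*. Of 14 such genes, 11 were lower in both genotypes (30.6% of all loci tested) and 2 higher (47.2%), and 9 passed the test as lower (10.7% of all loci tested) and 0 as higher (13.2%) among the 11 that could be tested, with a median log2 difference of -0.998 over the 14. *F3H*, *ELIP2*, *RUP1*, *RUP2*, *RBCS1A* and *LHCB1.1* were among the 9, and *RBCS1A* is also one of the leaf markers. *ELIP1*, *ELIP2* and *RUP2* reached the minimum of 1 FPKM only through replicate 1, with *ELIP2* listed at 0 in the replicate 2 libraries. These genes could be tested only because they were high in replicate 1, so the count of 9 is not independent of the minimum. *CHS*, chalcone synthase at the entry of flavonoid synthesis, was at 96.7 FPKM in WT and 67.4 in *ldl1 ldl2* in replicate 1, against 19.8 and 12.5 in replicate 2 (log2 difference -2.29). *ELIP1*, an early light-induced protein of the chloroplast, was at 17.1 and 5.199 FPKM in the replicate 1 libraries, against 0.1902 and 0.461 in replicate 2. *NIA2*, nitrate reductase, was at 277 and 112 FPKM in the replicate 1 libraries, against 24.3 and 30.8 in replicate 2. *CHI*, chalcone isomerase, went against the list at 6.45 and 5.96 FPKM in the replicate 1 libraries, against 9.34 and 7.93 in replicate 2, without passing the test (adjusted p = 0.227 from limma). Many of these genes are also under other light and clock control, and the part of HY5 in their levels was not tested.

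Targets of PIFs went in both directions between the replicate numbers. Of 15 such genes, 4 were higher (47.2% of all loci tested) and 6 lower (30.6%) in replicate 2 in both genotypes, and the median log2 difference was 0.06. Of the 10 that could be tested, 1 passed as higher (13.2% of all loci tested) and 2 as lower (10.7%). *IAA29*, an Aux/IAA gene of the auxin response, was at 3.94 FPKM in WT and 8.26 in *ldl1 ldl2* in replicate 1, against 23.1 and 17.3 in replicate 2. The cell wall gene *XTR7* and the homeodomain gene *HAT1* were the genes that passed as lower. *XTR7* was at 9.36 FPKM in both replicate 1 libraries and at 0.974 and 1.82 in replicate 2, and *HAT1* was at 58.4 and 70.06 and then at 19.8 and 25.5.

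Among the photoreceptors, 2 of 10 passed as higher in replicate 2 (13.2% of all loci tested) and 0 as lower (10.7%). *CRY2*, a blue-light receptor, was at 57.1 and 72.1 FPKM in the replicate 1 libraries, against 145 and 135 in replicate 2, and *UVR8*, the UV-B receptor, at 37.3 and 37.9 and then 94.9 and 71.9. The phytochrome genes did not pass, with *PHYB* at 5.03 and 9.696 FPKM in the replicate 1 libraries, against 10.9 and 9.81 in replicate 2. Of 8 genes of the COP1/SPA and DET1 repressors, *SPA3* alone passed, as lower (10.7% of all loci tested), at 15.3 and 10.2 FPKM in the replicate 1 libraries, against 4.92 and 5.45 in replicate 2. *COP1* itself was at 8.87 to 10.05 FPKM in all libraries.

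**Figure D4:**
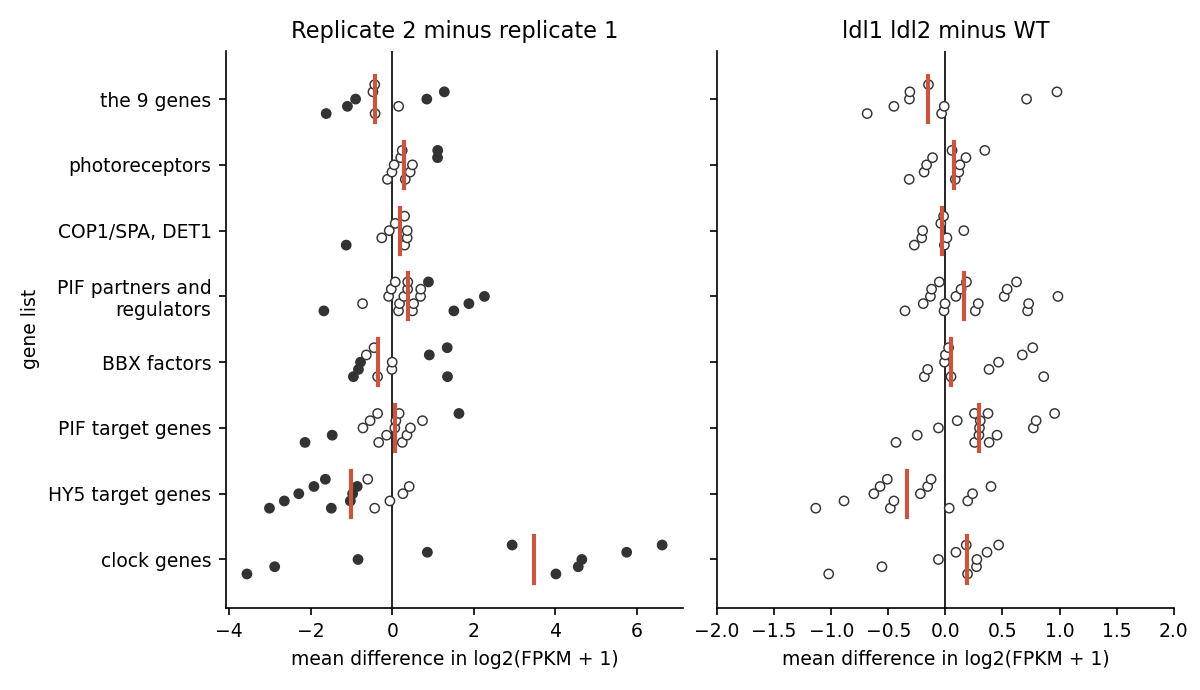
Mean difference in log2(FPKM + 1) of each gene of the 9 and of 7 lists of light signaling and clock genes, with replicate 2 minus replicate 1 on the left and *ldl1 ldl2* minus WT on the right. Filled points passed limma's adjusted p of 0.05 and red bars are medians. The median of the HY5 targets lies at -0.998 on the left, and no point on the right is filled.

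Between the genotypes, *HFR1* and *PIL1* were the only ones of the 9 genes that were higher in the mutant within each replicate number. *HFR1* was at 8.13 and 9.94 FPKM in replicates 1 and 2 of WT, against 27.8 and 12.4 in those of *ldl1 ldl2*. Both *ldl1 ldl2* values lay above both WT values, but most of the difference came from replicate 1, in which *ldl1 ldl2* was 3.42-fold above WT, against 1.25-fold in replicate 2. The means were 20.1 ± 10.9 FPKM in *ldl1 ldl2* and 9.04 ± 1.28 in WT (SD, n = 2), a log2 fold change of 0.98 (standard error 0.46, adjusted p = 1.00 from limma). Without *ldl1 ldl2* replicate 1 it was 0.43, and without *ldl1 ldl2* replicate 2 it was 1.53.

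*PIL1* was at a low level throughout and at 0.637 and 0.340 FPKM in replicates 1 and 2 of WT, against 1.95 and 0.991 in those of *ldl1 ldl2*. The groups did not overlap, and the ratio was close in the replicates, at 3.07 and 2.91. The log2 fold change was 0.71 on the log2(FPKM + 1) scale and 1.39 with a pseudocount of 0.1, with which it was the only one of the 9 genes at least 2-fold different in both replicate numbers. *PIL1* was below the minimum for the test, and without that minimum its adjusted p was 1.00 from limma.

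None of the 5 PIF genes and neither bZIP gene passed the test between the genotypes. *PIF1* was in *ldl1 ldl2* at 16.99 ± 0.412 FPKM against 21.4 ± 2.95 in WT (SD, n = 2), without overlap and with a log2 difference of -0.20 in replicate 1 and -0.42 in replicate 2. *PIF3* had log2 differences of -0.41 and -0.49, *PIF5* -0.10 and -0.20, and *HY5* -0.23 and -0.40. *HYH* was 3.09-fold higher in WT than in *ldl1 ldl2* in replicate 1 and 1.37-fold higher in replicate 2 by FPKM, and its differences on the log2(FPKM + 1) scale were -1.24 and -0.13. *PIF4* and *PIF7* changed sign between the replicates, with log2 differences of 0.16 and -0.22 for *PIF4* and -0.33 and 0.31 for *PIF7*.

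None of these differences passed limma over all loci, in which 0 of 16905 loci (0%) passed an adjusted p of 0.05 and 394 had an unadjusted p under 0.05. Within both replicate numbers 2 of the 9 genes were higher in *ldl1 ldl2*, against 19.8% of all loci tested, and 5 were lower, against 31.0%. The genotypes did not overlap for 2 genes that were higher in *ldl1 ldl2* (8.25% of all loci tested) and 1 that was lower (13.3%), although *PIL1*, 1 of the former, was not among the loci tested. By the 2-fold rule in both replicate numbers 0 of the 9 genes were called, against 1.40% of all loci tested as higher and 0.148% as lower. The spread that this test uses includes the difference between replicate numbers, and exact permutation of 2 libraries against 2 reaches a two-sided p of 0.333 at the lowest for any one gene.

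Among the 15 PIF targets, 8 were at higher values in *ldl1 ldl2* in both replicate numbers and 1 at lower values (19.8% and 31.0% over all loci tested), with a median log2 fold change of 0.30 beside -0.04 over all loci tested, and 0 passed the test. Only 10 of the 15 met the minimum for the test, while the shares and the -0.04 are over tested loci. The median of 0.30 is the value of *YUC8*, which did not meet the minimum. *HB-2*, a homeodomain gene induced by shade, was at 15.8 and 17.6 FPKM in replicates 1 and 2 of WT, against 38.9 and 21.8 in those of *ldl1 ldl2*, and *IAA19* at 5.59 and 1.94 and then at 8.37 and 6.78. The groups of *HB-2* did not overlap, and those of *IAA19* did not overlap either. Of the 14 HY5 targets, 1 was higher and 5 were lower in *ldl1 ldl2* in both replicate numbers, with a median of -0.33. *F3H*, a flavonoid enzyme gene, was at 18.5 and 5.23 FPKM in replicates 1 and 2 of WT, against 9.47 and 2.39 in those of *ldl1 ldl2*, so that its WT and *ldl1 ldl2* values overlapped across the replicate numbers. *FLS1*, flavonol synthase, had the smallest unadjusted p of the list, and its values did not overlap, at 2.07 and 1.65 FPKM in WT against 1.02 and 1.16 in *ldl1 ldl2* (log2 fold change -0.45, adjusted p = 1.00 from limma). Of the photoreceptors and the COP1/SPA and DET1 genes, those with the smallest unadjusted p between the genotypes were *PHOT2* (log2 fold change -0.32) and *PHYB* (0.35), and *DET1* (-0.27) and *DDB1A* (-0.20), all with an adjusted p of 1.00 from limma.

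The loci whose pattern over the 4 libraries was nearest to that of *HYH*, by Euclidean distance of centred log2(FPKM + 1), were *EARLI1* at a distance of 0.083, *UP6* at 0.11 and *AT5G14450* at 0.13. Nearest to *HFR1* were *PLS* at 0.053, *MIOX2* and *ARL*, both at 0.20. Over these 4 libraries 89 loci lay within a distance of 0.5 of *HYH* and 29 within that of *HFR1*. Among the 8 tested genes themselves the nearest pair was *PIF5* and *HY5* at 0.46, whereas *PIF4* and *PIF5* were 1.33 apart and *HY5* and *HYH* 1.03.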

How the data were processed

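Leaf mRNA of 2 WT and 2 *ldl1 ldl2* libraries was measured by paired-end sequencing. The authors aligned reads with TopHat2 and Bowtie2 and deposited FPKM, estimated with Cufflinks on the TAIR10 gene model separately for each replicate. The processing notes name Trimmomatic 0.33. For TopHat2, Bowtie2 and Cufflinks the version is not given in the sources used here. Because FPKM are not counts, no count test was run. A listed 0 can be a failed estimate, and the precision of low values (*PIL1*, *HYH*) is unknown.

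The 16905 loci that averaged at least 1 FPKM were transformed as log2(FPKM + 1), with no rescaling of the deposited values. A locus can pass this minimum through only the replicate number in which it was high. Among the genes named as called, *HYH*, *ELIP1*, *ELIP2*, *RUP2*, *BBX32* and *LHY* passed it only through replicate 1. *PIF6*, *RGL3*, *BBX29*, *PRR5* and *ELF4* passed it only through replicate 2. The log2(FPKM + 1) scale understates changes of low genes. The fits used limma 3.58.1 (R 4.3.3, mean-variance trend, two-sided, Benjamini-Hochberg adjustment over all loci at 0.05), the genotypes without a replicate term and the replicate numbers with genotype as a term. The p-values measure only the spread between these libraries. On simulated data both fits made false calls at a rate above the 0.05 that the adjustment aims at, more so for the replicate numbers. Whether the genotype fit has this rate on these libraries, where its spread includes the difference between replicate numbers, was not tested. The members and lists were chosen with earlier results of these data known. Of 89 genes on 7 lists, 86 matched their symbol in RefSeq and 3 were left out. Genes named from a list were those that passed and the 2 with the smallest p in each comparison, to which were added *CHI*, *COP1* and *SEP3*, which were chosen after their values were seen. Positions and sequences are from RefSeq TAIR10.1, matched by locus, and other starts in the authors' gene models would move a promoter window. Alternatives were pseudocounts of 0.1 and 0.5, no minimum, quantile normalization, median scaling, each library left out, a replicate block and no genotype term.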

Additional observations from a re-analysis of the deposited data

Results flagged for a closer look

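*HFR1* differed between the replicate numbers in opposite directions in the genotypes, at 0.26 in WT and -1.10 in *ldl1 ldl2* for replicate 2 minus replicate 1 on the log2(FPKM + 1) scale. The difference between the genotypes was not tested, since each genotype holds 1 library of each number.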

How the results depend on the processing

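Over 6 changes of setting, the replicate difference kept its sign in all 54 values of the 9 genes. Dropping the minimum on FPKM or the genotype term leaves the difference itself unchanged, so those values could not change sign. With median scaling the difference of *PIF1* was 0.0032. *PIF3* passed in every fit (adjusted p from 0.00194 to 0.0419 from limma). The number of loci called between replicate numbers was 4044, and it was 1685 without the minimum on FPKM, 2671 with median scaling and 1981 without a genotype term. With a pseudocount of 0.1, 1 of the 9 genes was at least 2-fold different between the genotypes in both replicate numbers in place of 0. Between the replicate numbers, 3 of the 9 genes were at least 2-fold different in both genotypes with that pseudocount or quantile normalization, in place of 2. Same-numbered libraries deviated together, with a correlation across loci of 0.726 between the genotypes' replicate differences, but 2 pairs and the labels do not establish a pairing. With a replicate block 348 loci passed between the genotypes in place of 0, none of them among the 9 genes, of which *HFR1* had the lowest adjusted p (0.169). With each library left out, 0 to 3 loci passed between the genotypes, 0 to 2 of the 9 genes were at least 2-fold different between the genotypes in the remaining pair, and 3 to 4 between the replicate numbers in the remaining genotype. The genotype fold change kept its sign in 52 of 54 values over the changes of setting. Dropping the minimum or adding a replicate block leaves the fold change itself unchanged, so those values could not change sign. With a library left out it kept its sign in 25 of 36 values. Leaving out a library leaves no residual degrees of freedom for the replicate comparison, so those values have no test. Depth was not analysed here, which limits what *PIL1* and *HYH* can show.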

Other observations

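Genes listed as partners or regulators of PIFs went in both directions between the replicate numbers. Of 18 such genes 17 were tested, and 4 passed as higher (*PIF6*, *RGL3*, *PAR1* and *FHY1*; 13.2% of all loci tested) and 1 as lower (*PAR2*; 10.7%) in the replicate 2 libraries. *PIF6* and *RGL3* averaged 0.43 and 0.624 FPKM in the replicate 1 libraries and reached the minimum of 1 FPKM only through replicate 2. Calls for these genes are not independent of the minimum. *PIF6*, a minor member of the PIF family, was at 0.275 FPKM in WT and 0.584 in *ldl1 ldl2* in replicate 1, against 8.69 and 3.78 in replicate 2. The paralogs *PAR1* and *PAR2*, atypical bHLH genes of the shade response, went in opposite directions. *PAR1* was at 3.998 FPKM (WT) and 20.9 (*ldl1 ldl2*) in replicate 1, against 48.02 and 29.3 in replicate 2, whereas *PAR2* was at 43.4 and 38.2 and then at 11.3 and 12.9. Between the genotypes, 8 of the 18 were at higher values in *ldl1 ldl2* in both replicate numbers (19.8% of all loci tested) and 0 at lower values (31.0%), and 0 passed the test. *FHL*, which carries phytochrome A into the nucleus, was at 1.06 and 1.73 FPKM in replicates 1 and 2 of WT, against 4.14 and 3.29 in those of *ldl1 ldl2*, and the DELLA gene *RGL1* was at 2.625 and 3.003 and then at 4.44 and 6.33. The values of both genes did not overlap between the genotypes.

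The B-box factors of light signaling fell on both sides. Of 11 such genes 8 were tested, and 3 passed as higher in the replicate 2 libraries (*BBX21*, *BBX22* and *BBX29*; 13.2% of all loci tested) and 3 as lower (*BBX25*, *BBX28* and *BBX32*; 10.7%). *BBX29* averaged 0.928 FPKM in the replicate 1 libraries and *BBX32* 0.452 in the replicate 2 libraries, both below the minimum of 1 FPKM. The calls for these genes are therefore not independent of the minimum. Between the genotypes *BBX20* and *BBX28* had the smallest unadjusted p, with log2 fold changes of 0.47 and 0.67 and an adjusted p of 1.00 from limma. *BBX22*, an activator that works with HY5, was at 12.06 FPKM in WT and 9.001 in *ldl1 ldl2* in replicate 1, against 27.3 and 28.8 in replicate 2. *BBX25*, which represses HY5 function, was at 27.8 and 24.4 FPKM and then at 15.9 and 13.8.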
